A study of Mus musculus with 6 samples.

Results

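The genes described here are 32 members of the piRNA pathway and of transposon silencing, chosen by name from 31384 genes in a count table of a mouse spermatogonial stem cell line. All 32 symbols matched 1 gene each, and all 32 passed the filter on low counts. The 6 RNA libraries fall into 3 groups of 2, all collected on day 18. Cells of every group grew on embryonic fibroblasts of the mouse that mitomycin C had stopped from dividing, and per the labels every medium held 10 ng/mL EGF, 10 ng/mL FGF2 and 5000 U LIF. The PTC group also had 10 ng/mL GDNF, the growth factor that sustains these stem cells. NTC cells went without GDNF. LOVA cells had lovastatin, an inhibitor of cholesterol synthesis, at 5 uM in its place. The labels give 1 cell line without its strain, and do not say that the 2 libraries of each kind are separate cultures. A p-value therefore measures the spread between these libraries, which may be technical. Libraries are named A and B after the columns of the table.

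PIWI proteins are Argonaute family proteins of germ cells that carry piRNAs, short RNAs that pair with transposon transcripts. In the cytoplasm, PIWI proteins, RNA helicases and Tudor-domain proteins gather in granules beside mitochondria, where piRNA precursors are cut, trimmed and methylated. In the nucleus of fetal male germ cells, piRNAs bound to PIWIL4 direct DNA methylation to young transposons with the help of SPOCD1 and TEX15, and adult spermatogonia carry these marks forward. Many of the genes are transcribed almost only in germ cells, while Prmt5, Wdr77, Setdb1 and Trim28 are used by most cell types.

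RefSeq start-site windows (GRCm38.p6) were at hand for 24 of the 32 genes. The 250 bases upstream of the RefSeq start are shown for the 3 called genes with the largest fall in NTC among those 24. These were Tdrd9, Tdrd5 and Mov10l1, and Exd1, which had the smallest difference, is shown beside them. GENCODE, used for coordinates elsewhere here, places the start of Tdrd5 at 156303664 and that of Mov10l1 at 88982909. By those starts the Tdrd5 window and the last part of the Mov10l1 window lie inside the gene, not upstream of it. In 21 of the 24 windows the bases after the RefSeq start were found in a transcript of the gene. Capitals mark CACGTG (an E-box, the same on both strands), TCCCGC (the core of E2F sites) and CCAAT, each searched on both strands; no match of one overlaps a match of another in these 4 windows.
Tdrd9 (chr12:111971309-111971558, plus strand): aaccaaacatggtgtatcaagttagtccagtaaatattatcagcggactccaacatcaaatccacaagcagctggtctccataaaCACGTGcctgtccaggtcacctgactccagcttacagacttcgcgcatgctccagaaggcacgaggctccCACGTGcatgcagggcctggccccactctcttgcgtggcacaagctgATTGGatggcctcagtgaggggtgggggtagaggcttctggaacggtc
Tdrd5 (chr1:156303349-156303598, minus strand): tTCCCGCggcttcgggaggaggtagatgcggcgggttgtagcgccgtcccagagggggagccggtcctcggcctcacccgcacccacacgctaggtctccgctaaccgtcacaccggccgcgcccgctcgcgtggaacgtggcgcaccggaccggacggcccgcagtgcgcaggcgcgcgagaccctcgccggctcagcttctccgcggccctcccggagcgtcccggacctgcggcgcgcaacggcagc
Mov10l1 (chr15:88982744-88982993, plus strand): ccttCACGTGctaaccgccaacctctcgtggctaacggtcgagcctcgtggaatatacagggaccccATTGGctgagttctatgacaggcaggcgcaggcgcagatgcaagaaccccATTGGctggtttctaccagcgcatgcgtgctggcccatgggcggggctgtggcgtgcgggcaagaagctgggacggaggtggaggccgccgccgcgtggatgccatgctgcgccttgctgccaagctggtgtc
Exd1 (chr2:119547628-119547877, minus strand): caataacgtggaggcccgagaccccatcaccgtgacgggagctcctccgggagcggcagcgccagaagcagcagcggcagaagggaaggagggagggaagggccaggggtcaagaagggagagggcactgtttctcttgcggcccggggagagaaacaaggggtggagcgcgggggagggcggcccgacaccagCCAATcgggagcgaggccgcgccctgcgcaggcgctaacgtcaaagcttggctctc
The Tdrd9 window held 2 CACGTG matches and the Mov10l1 window 1, while Tdrd5 and Exd1 held none. Of the 24 windows of the pathway, 9 held CACGTG (37.5%), against 6.04% of all 27025 genes with a window and 8.36% of the 12166 such genes that were tested for expression. Those 9 were Ddx4, Fkbp6, Mael, Mov10l1, Piwil1, Pld6, Stk31, Tdrd1 and Tdrd9. TCCCGC was in 25.0% of the pathway's windows and 29.1% of those of tested genes, and CCAAT in 45.8% and 36.8%. The MYB core AACNG was in 70.8% and 71.7%. The windows held a median of 16.5 CpG dinucleotides, against 15 in tested genes, from 3 in Tdrd7 to 40 in Tdrd5. The matches describe the letters of these windows and say nothing of binding, and the motifs were chosen after expression values were seen.

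Total counts ranged from 12454671 to 22668087 per library, and a floor of 3 counts stood for 0.128 to 0.258 CPM (counts scaled to the library total, with TMM factors from edgeR). Markers of undifferentiated spermatogonia were present in all 6 libraries, beside markers of other cells, though Lhx1 had only 6 and 5 counts in NTC. Of the 13 markers, 8 were called lower than PTC in NTC and 8 in LOVA, where 12.9% and 10.8% of all genes were. Their median log2 fold changes were -1.37 and -1.17. The transcription factor Zbtb16 was at 389 and 387 CPM in PTC, 134 and 125 CPM in NTC, and 218 and 127 CPM in LOVA. The protamines Prm1 and Prm2 of spermatids had 0 counts in all 6 libraries, within the floor given. Of the other spermatid markers, Spaca1 had 24 and 36 counts in PTC and 5 to 24 in the other libraries. Acrv1, Tnp1, Tnp2 and Odf1 had at most 5 counts in any library. The 16 fibroblast markers made up 0.146% and 0.585% of counts (library A, then B) with GDNF, 1.69% and 2.82% in NTC libraries and 1.48% and 2.78% in LOVA libraries. The 10 macrophage markers took 0.0292% and 0.0250%, 0.198% and 0.246% and 0.0429% and 0.0516% in the same order, and the 8 Sertoli markers at most 0.00363% in any library.

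Transcripts of the piRNA pathway took a smaller share of the RNA in both groups without GDNF. Summed over the 32 genes, the share of counts was 0.750% and 0.752% in the PTC libraries (A, then B), 0.439% and 0.295% in those of NTC and 0.510% and 0.281% in those of LOVA. A set of 21 other germ cell genes, such as the nuclear export factor Nxf2 and the testis histone reader Brdt, took 0.446% and 0.437%, 0.261% and 0.171% and 0.289% and 0.154%. Per 1000 counts of these germ cell genes, the pathway had 1682 and 1719 counts in PTC, 1682 and 1727 in NTC, with 1762 and 1823 in the LOVA libraries. Both shares were lower, and the fibroblast share higher, in all 4 libraries without GDNF than in the PTC libraries. Within NTC and within LOVA, library B had the lower pathway share and the higher fibroblast share. Between PTC A and B the fibroblast share differed without a matching difference in the pathway share. In bulk RNA, fewer germ cells and less of these RNAs per germ cell cannot be told apart.

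**Figure D1:**
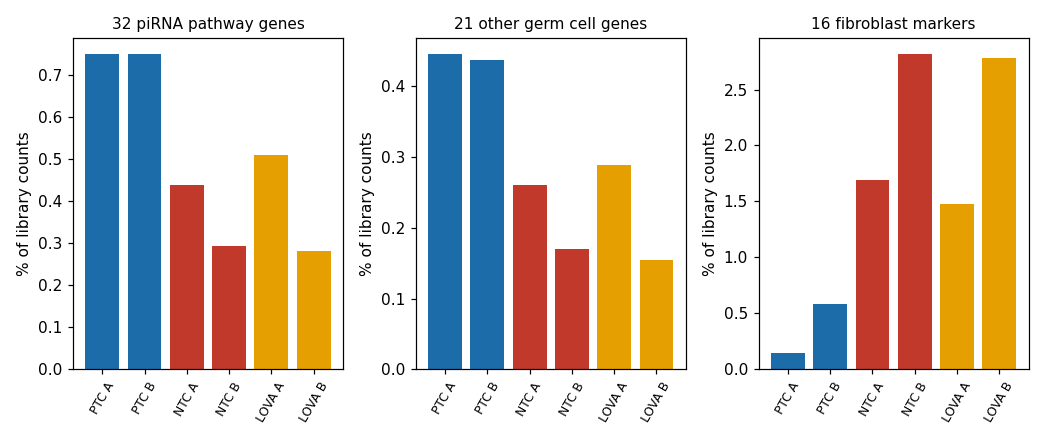
Share of each library's counts (%, bars from 0, each panel with its own scale) taken by the 32 piRNA pathway genes, 21 other germ cell genes and 16 fibroblast markers; colours mark the groups. The first 2 panels are highest in PTC A and B and lowest in NTC B and LOVA B, which are the libraries with the highest fibroblast shares.

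Without GDNF, 16 of the 32 genes were called lower and 0 higher, where 12.9% of all 16121 genes tested were called lower and 21.5% higher. With lovastatin in place of GDNF, 13 were lower than in PTC and 1, Tex15, was higher, where 10.8% and 19.8% of all genes were called. A gene is called at an adjusted p under 0.05 from edgeR's quasi-likelihood test. The median log2 fold change of the 32 genes was -0.95 in NTC minus PTC and -0.96 in LOVA minus PTC, against -0.02 and 0.00341 over all genes. In both comparisons both libraries lay below both PTC libraries for 31 genes, as for 38.5% and 37.9% of all genes. Tex15 was above PTC without overlap in both, as 39.0% and 38.4% of all genes were. Both comparisons use the same PTC libraries and are therefore not independent of each other.

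**Figure D2:**
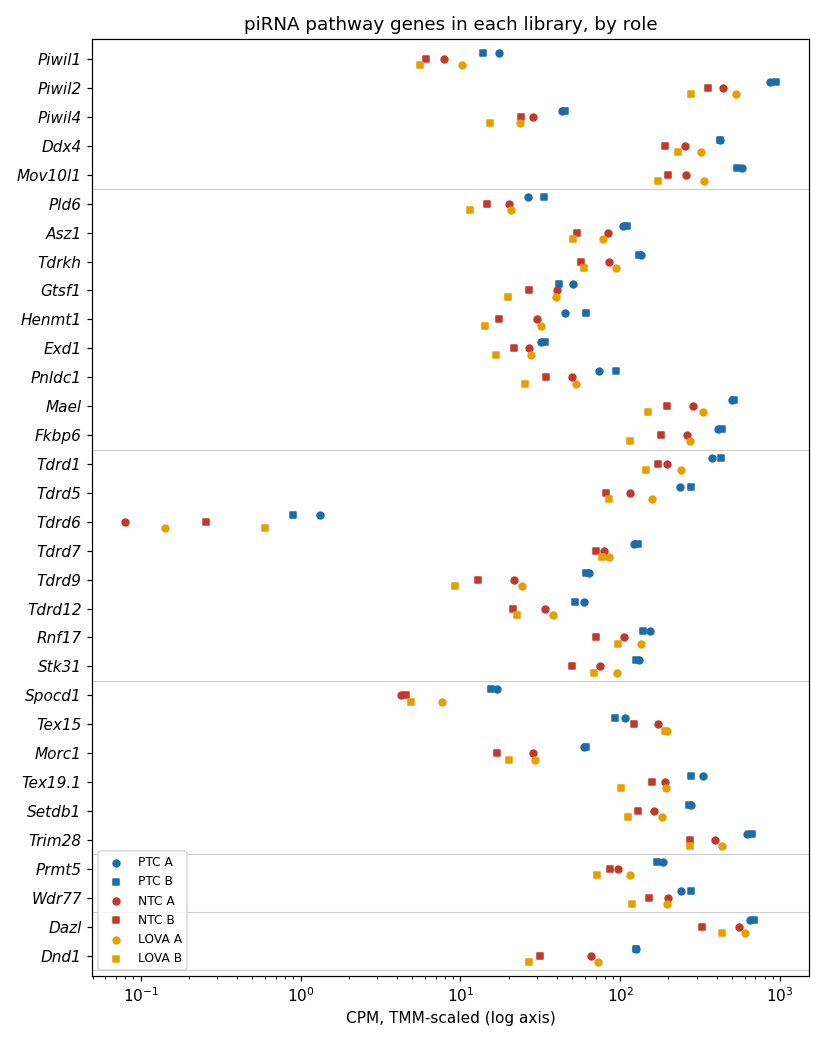
CPM of the 32 genes (1 line each, grouped by role; log axis) in each of the 6 libraries, with colours for groups, circles for A and squares for B. The PTC libraries lie to the right of NTC and LOVA for 31 genes and to the left for Tex15.

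The number of calls rested on single libraries more than the directions did. In NTC minus PTC, 0 genes were called without NTC B, 1 (Spocd1) without PTC A, 1 (Spocd1) without PTC B and 5 without NTC A, while 26 were called without LOVA A and 26 without LOVA B. In LOVA minus PTC, 0 were called without PTC A, PTC B or LOVA B, 6 without NTC A, 6 without NTC B and 29 without LOVA A. Of the 32 genes, 31 kept a negative and 1 a positive fold change in each of these 12 fits. With the column letters A and B as a block, 29 genes were called in each comparison, 28 lower and Tex15 higher. The letters are not known to pair cultures. For these alternative fits the share of all genes called is not given here, so the counts do not compare the pathway with other genes. Leaving out NTC A moved the median of NTC minus PTC to -1.22 and leaving out NTC B to -0.73. Without LOVA A the median of LOVA minus PTC was -1.35, and without LOVA B it was -0.62.

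Among the PIWI proteins and RNA helicases, 4 of 5 genes fell in NTC and 3 of 5 in LOVA. Piwil2, the PIWI protein that makes primary and secondary piRNAs in spermatogonia and fetal germ cells, was at 869 and 941 CPM in PTC, 439 and 355 CPM in NTC, and 526 and 277 CPM in LOVA. Both groups without GDNF lay below PTC and overlapped each other. Its log2 fold change was -1.19 (SE 0.30, adjusted p = 0.0262) in NTC minus PTC and -1.17 (SE 0.30, adjusted p = 0.0307) in LOVA minus PTC. Mov10l1, the helicase that hands piRNA precursors to the pathway, was at 577 and 536 CPM in PTC, 256 and 199 CPM in NTC, and 336 and 172 CPM in LOVA, with changes of -1.29 (SE 0.32, adjusted p = 0.0241) and -1.13 (SE 0.31, adjusted p = 0.0369). Ddx4, the VASA helicase that marks germ cells, was at 419.6 and 421 CPM in PTC, 255 and 189.6 CPM in NTC, and 321 and 231 CPM in LOVA. It fell in NTC, by 0.92 (SE 0.23, adjusted p = 0.0242) on the log2 scale, and was at -0.61 (SE 0.22, adjusted p = 0.0775) in LOVA minus PTC, not called. Piwil4, the nuclear PIWI protein, was far scarcer, at 43.5 and 45.2 CPM in PTC, 28.5 and 23.8 CPM in NTC, and 23.6 and 15.3 CPM in LOVA. It was at -0.76 (SE 0.26, adjusted p = 0.0577) in NTC, not called, and fell in LOVA, at -1.18 (SE 0.26, adjusted p = 0.0230). Piwil1, the PIWI protein of meiotic and later cells, was at 17.5 and 13.9 CPM in PTC, 7.89 and 6.13 CPM in NTC, and 10.2 and 5.59 CPM in LOVA, and it fell in NTC (-1.16, SE 0.37, adjusted p = 0.0477). In LOVA minus PTC it was at -0.99 (SE 0.37, adjusted p = 0.0783), not called. Whether NTC and LOVA differed in any of these genes is given with the direct comparison of LOVA and NTC.

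The 9 genes of piRNA processing all had negative fold changes, of which that of Tdrkh alone was called in NTC and none in LOVA. With the column letter as a block, 7 of the 9 were called lower in NTC and all 9 in LOVA. The share of all genes called in that fit is not given here, so these counts do not set the 9 genes against other genes. Mael, a granule protein needed for transposon repression, was at 502 and 517 CPM in PTC, 286 and 196 CPM in NTC, and 329 and 149.6 CPM in LOVA, with -1.08 (SE 0.37, adjusted p = 0.0590) in NTC minus PTC and -1.09 (SE 0.37, adjusted p = 0.0615) in LOVA minus PTC. The B library was lower than the A library in both groups without GDNF. Tdrkh, the mitochondrial Tudor protein that holds PIWI proteins for trimming, was at 134 and 132 CPM in PTC, 84.6 and 56.7 CPM in NTC, and 93.6 and 59.1 CPM in LOVA and fell in NTC (-0.91, SE 0.28, adjusted p = 0.0447). Its fold change in LOVA minus PTC was -0.80 (SE 0.28, adjusted p = 0.0682). The trimmer nuclease Pnldc1, the methyltransferase Henmt1 that modifies piRNA 3' ends, the co-chaperone Fkbp6, the mitochondrial nuclease Pld6 and its partner Asz1 were between -1.16 and -0.65 in NTC minus PTC and between -1.20 and -0.75 in LOVA minus PTC. Gtsf1, a zinc-finger cofactor of PIWI cleavage, and Exd1, a partner of TDRD12, had the smallest differences of the group in NTC, -0.46 (95% interval -1.32 to 0.39) and -0.45 (95% interval -1.13 to 0.22). Their intervals include 0 and also a fall of more than 1 on the log2 scale, so these libraries do not show that they stayed level.

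The Tudor-domain genes held 6 of the 16 calls in NTC and 4 of the 13 lower calls in LOVA. Tdrd9, a helicase with a Tudor domain that works beside PIWIL4, was at 63.6 and 61.0 CPM in PTC, 21.7 and 12.8 CPM in NTC, and 24.2 and 9.20 CPM in LOVA. All 4 libraries without GDNF lay far below both PTC libraries, and its changes were -1.85 (SE 0.46, adjusted p = 0.0249) and -1.89 (SE 0.46, adjusted p = 0.0275). Tdrd5, which shapes the granules and binds piRNA precursors, was at 235 and 279 CPM in PTC, 116 and 81.1 CPM in NTC, and 157 and 84.6 CPM in LOVA, with changes of -1.38 (SE 0.32, adjusted p = 0.0217) and -1.09 (SE 0.32, adjusted p = 0.0435). Tdrd1, the scaffold that binds PIWIL2, was at 372 and 424 CPM in PTC, 195 and 172 CPM in NTC, and 239 and 146 CPM in LOVA, with -1.12 (SE 0.25, adjusted p = 0.0200) and -1.05 (SE 0.25, adjusted p = 0.0264). Stk31, a Tudor protein with a kinase-like domain, and Tdrd12, a helicase-like Tudor protein of secondary piRNA production, also fell in NTC. For Stk31 the fold change was -1.04 (SE 0.25, adjusted p = 0.0241) there and -0.64 (SE 0.25, adjusted p = 0.0911) in LOVA, and for Tdrd12 -1.01 (SE 0.32, adjusted p = 0.0492) and -0.87 (SE 0.32, adjusted p = 0.0788). Tdrd12 was at 59.0 and 51.7 CPM in PTC, 33.6 and 21.3 CPM in NTC, and 38.0 and 22.6 CPM in LOVA, and Stk31 at 130.4 and 126 CPM in PTC, 74.7 and 49.9 CPM in NTC, and 95.6 and 68.6 CPM in LOVA. Tdrd7, which is also used outside the germ line, had the smallest called fall of the pathway, -0.75 (SE 0.17, adjusted p = 0.0190) in NTC and -0.64 (SE 0.17, adjusted p = 0.0315) in LOVA. Rnf17, a Tudor protein with a RING finger, was not called in either (-0.74 and -0.35). Tdrd6, a protein of meiotic and later germ cells, had 21 counts in PTC A, 21 in PTC B and 1 to 7 in the other libraries, too few to place (-2.60 in NTC minus PTC, 95% interval -4.84 to -0.35).

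Of the 6 genes of nuclear silencing and other transposon control, 4 fell in NTC, and in LOVA 5 fell and 1 rose. Spocd1, the nuclear partner of PIWIL4 in transposon methylation, had the largest called fall of the pathway in NTC. Its level was 16.9 and 15.6 CPM in PTC, 4.22 and 4.58 CPM in NTC, and 7.69 and 4.90 CPM in LOVA. Its changes were -1.88 (SE 0.33, adjusted p = 0.0121) and -1.36 (SE 0.32, adjusted p = 0.0255), and it lies on chromosome 4 from 129929249 to 129957115 (mm10). Morc1, an ATPase that keeps transposons silent in the male germ line, fell in both, at 59.6 and 60.8 CPM in PTC, 28.4 and 17.0 CPM in NTC, and 29.3 and 20.04 CPM in LOVA, with -1.41 (SE 0.31, adjusted p = 0.0183) and -1.28 (SE 0.31, adjusted p = 0.0263). Tex19.1, a placental and germ cell protein that limits LINE-1 mobility, was at 328 and 279 CPM in PTC, 191 and 159 CPM in NTC, and 194 and 101 CPM in LOVA; the LOVA change was called, at -1.04 (SE 0.31, adjusted p = 0.0438), and that in NTC was not, at -0.79 (SE 0.31, adjusted p = 0.0833). Its near copy Tex19.2 could share reads with it. Setdb1 and Trim28, the histone methyltransferase and its corepressor that silence retroviral repeats in most cells, fell in both comparisons. Setdb1 was at 278 and 267 CPM in PTC, 162 and 128 CPM in NTC, and 184 and 111 CPM in LOVA, with -0.91 (SE 0.26, adjusted p = 0.0359) and -0.89 (SE 0.26, adjusted p = 0.0422). Trim28 was at 621 and 664 CPM in PTC, 389 and 274 CPM in NTC, and 434 and 274 CPM in LOVA, with -0.95 (SE 0.27, adjusted p = 0.0346) and -0.86 (SE 0.27, adjusted p = 0.0496).

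Tex15 was the exception of the pathway. It encodes a large nuclear protein needed for transposon methylation in fetal germ cells and for repair of meiotic breaks, and lies on chromosome 8 from 33516738 to 33585582 (mm10). Its level was 107 and 92.7 CPM in PTC, 172 and 122 CPM in NTC, and 196 and 189 CPM in LOVA, so that every library without GDNF was above both PTC libraries. It rose in LOVA (0.95, SE 0.21, adjusted p = 0.0227), while the difference in NTC was not called (0.56, SE 0.21, adjusted p = 0.0730). The LOVA call was lost without PTC A (adjusted p = 0.0885), without PTC B (0.110) or without LOVA B (0.0573), with log2 fold changes of 1.05, 0.85 and 0.98. With the letters as a block the difference in NTC was called too (adjusted p = 0.0150). The fibroblast share was higher in the same 4 libraries. Within each group, however, library B had the higher fibroblast share and the lower Tex15 level. The part of fibroblasts in the Tex15 level was not tested. Of the 12 meiotic and spermatid markers, 6 were tested and none was called in either comparison, though on the scale of other germ cell genes described further on 1 of them was called higher in LOVA. That gene was Sycp1, a protein of the synaptonemal complex, at 0.16 and 0.33 by TMM. On the germ cell scale it was at 1.02 in NTC minus PTC (edgeR adjusted p = 0.0509) and 1.27 in LOVA minus PTC (adjusted p = 0.0345). On that scale 26.2% of all genes were called higher in LOVA.

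The arginine methyltransferase Prmt5, which marks PIWI proteins for binding by Tudor domains, fell in both comparisons, whereas its cofactor Wdr77 did not pass. Prmt5 was at 184 and 170.3 CPM in PTC, 96.4 and 86.1 CPM in NTC, and 115 and 71.6 CPM in LOVA, with -0.96 (SE 0.24, adjusted p = 0.0259) and -0.93 (SE 0.24, adjusted p = 0.0316). Wdr77 was at -0.58 and -0.72. The germ cell RNA-binding proteins Dazl and Dnd1 were not called. Dazl, a translational regulator of germ cells, was at 649 and 691 CPM in PTC, 552 and 322 CPM in NTC, and 601 and 432 CPM in LOVA, with -0.62 (SE 0.28, adjusted p = 0.128) and -0.37 (SE 0.28, adjusted p = 0.329). Dnd1, which works with NANOS proteins, was at 125 and 125 CPM in PTC, 65.2 and 31.4 CPM in NTC, and 72.2 and 26.7 CPM in LOVA, with -1.37 (SE 0.52, adjusted p = 0.0818) and -1.34 (SE 0.52, adjusted p = 0.0916). Its A and B libraries were close to each other in PTC and far apart in NTC and LOVA.

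**Figure D3:**
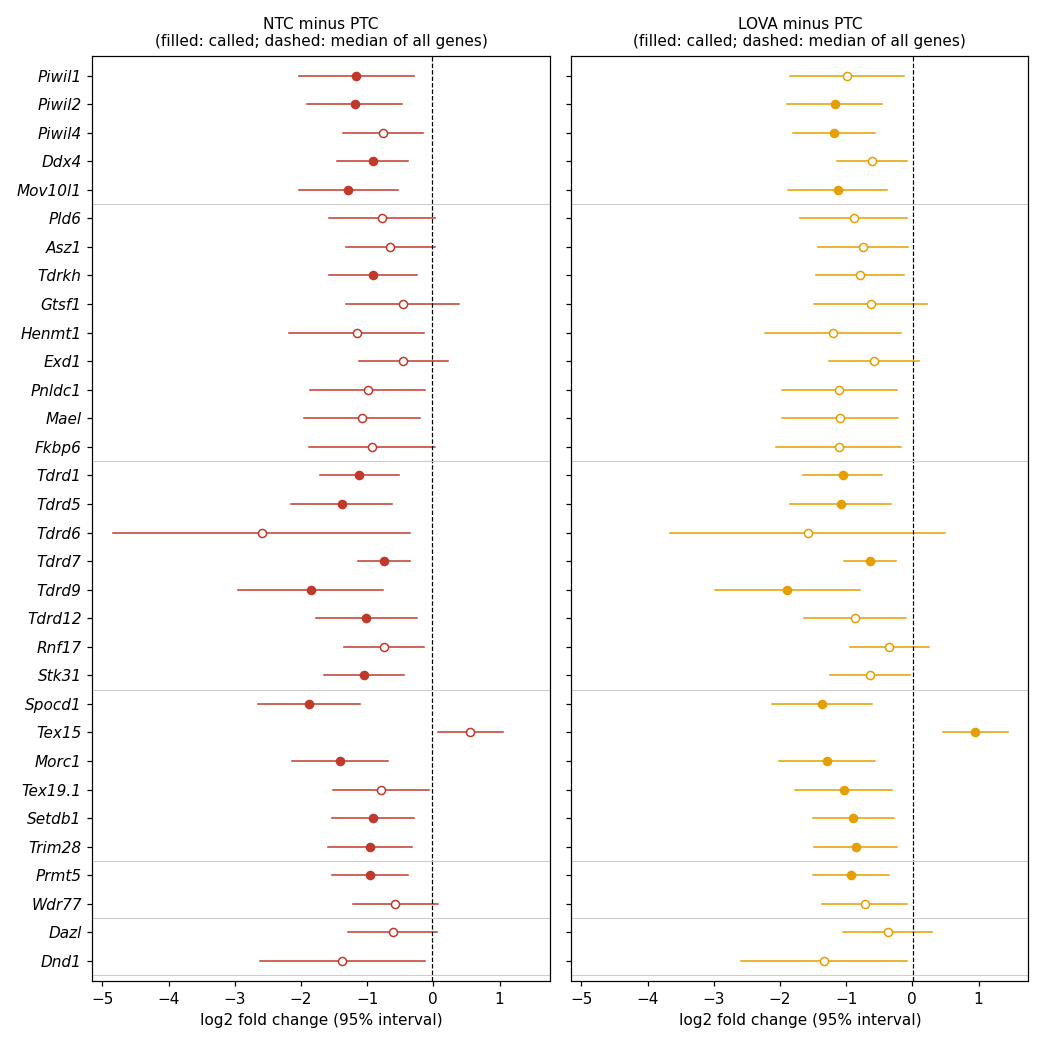
Log2 fold changes of the 32 genes against PTC with 95% intervals, for NTC (left) and LOVA (right); filled points were called and the dashed line is the median of all genes tested. In both panels 31 points lie to the left of 0, with Tdrd9 and Spocd1 among those farthest left, and Tex15 alone lies to the right.

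Exons of 8 of the genes overlap exons of a gene on the opposite strand, and the counting is not stated to use the strand. The longest such stretch is 2255 bp of Tdrkh with Oaz3, and the others are Piwil4, Henmt1, Pnldc1, Tdrd5, Setdb1, Wdr77 and Dnd1. Wdr77 also shares 1389 bp with a transcript on its own strand.

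Set against other germ cell genes, the fold changes of the pathway centred near 0. When libraries were scaled to the 21 germ cell genes that are not members, the median of all genes moved to 0.90 in NTC minus PTC and 0.97 in LOVA minus PTC. The median of the 32 genes became -0.06 and -0.08. No gene of the pathway was called lower on this scale, where 0.254% and 0.192% of all genes were. Of the 31 genes with negative fold changes before, 21 stayed negative in NTC minus PTC and 19 in LOVA minus PTC, and the others turned positive without a call. Apart from the sparse Tdrd6, the lowest were Tdrd9, at -0.99 (adjusted p = 0.0768) and -1.09 (adjusted p = 0.0596), and Spocd1 in NTC, at -0.94 (adjusted p = 0.118). Per 1000 germ cell counts Tdrd9 had 15.2 and 14.4 counts in PTC, 8.37 and 7.04 in NTC and 8.59 and 5.56 in LOVA. Spocd1 had 4.04 and 3.69, 1.63 and 2.51 and 2.73 and 2.96 in the same order.

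The one gene of the pathway called on the germ cell scale was Tex15, which was higher in both comparisons, where 24.3% and 26.2% of all genes were called higher. Its log2 fold change was 1.44 in NTC minus PTC (adjusted p = 0.0338) and 1.92 in LOVA minus PTC (adjusted p = 0.0332). Per 1000 germ cell counts it had 25.5 and 21.9 counts in PTC, 66.5 and 66.9 in NTC and 69.6 and 114 in LOVA. Piwil2 on this scale was at -0.29 and -0.31, Mael at -0.20 and -0.26, and Ddx4 at -0.03 and 0.31, none of them called. Of the 13 undifferentiated spermatogonia markers, 2 were called lower in each comparison, where 0.254% and 0.192% of all genes were. These were Lhx1 (-3.98) and Ret (-1.10) in NTC, and Lhx1 (-2.68) and Pou3f1 (-1.04) in LOVA. The medians of the 13 were -0.47 and -0.30. The scaling itself rests on the 21 germ cell genes, whose own fold changes by TMM had medians of -0.90 and -0.90. They ranged from -2.08 to 0.15 in NTC minus PTC and from -1.72 to -0.10 in LOVA minus PTC. On their own scale the 21 still ranged from -1.20 to 0.96 and from -0.85 to 0.80.

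**Figure D4:**
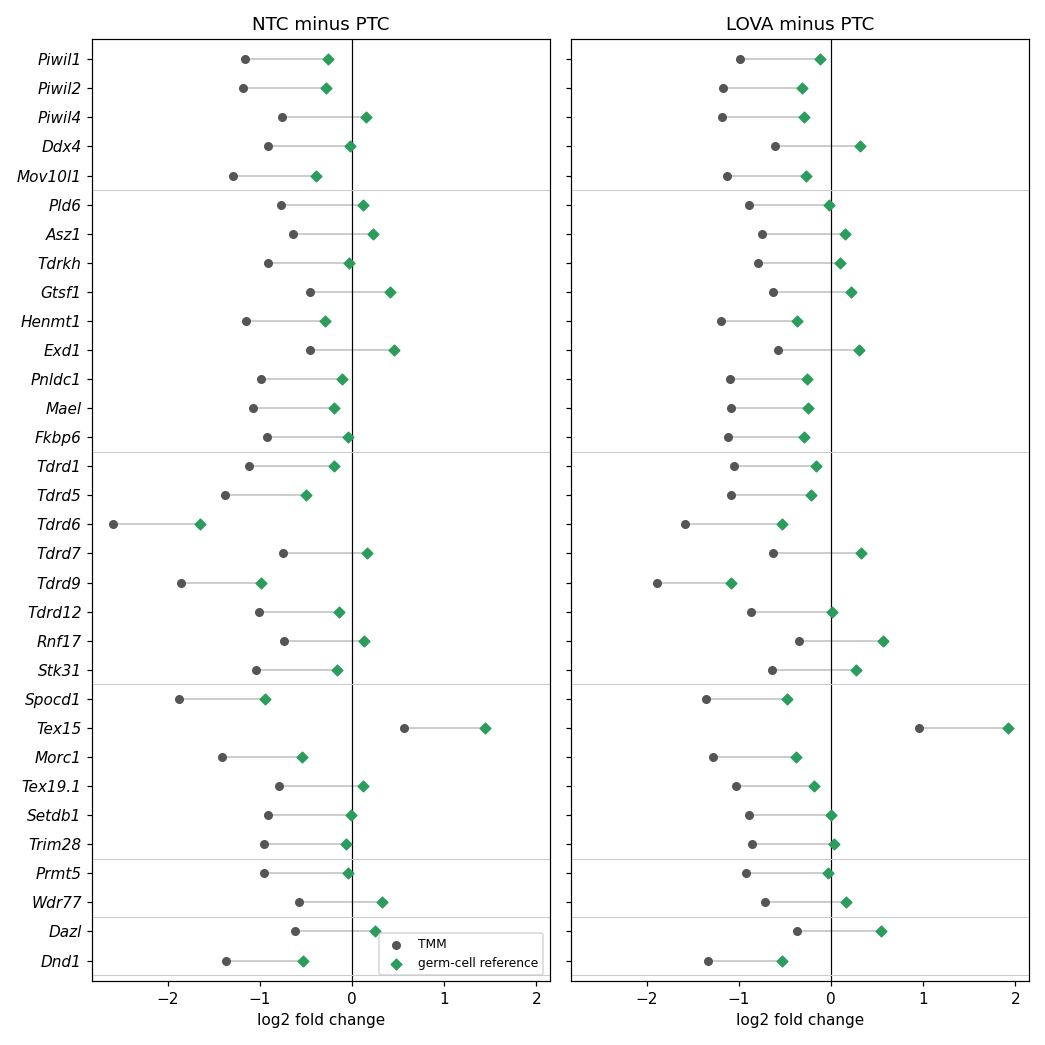
Log2 fold changes of the 32 genes against PTC with libraries scaled by TMM (grey circles) or to 21 other germ cell genes (green diamonds), for NTC (left) and LOVA (right). The diamonds scatter around 0, with Tdrd9 near -1 in both panels and Tex15 at 1.44 and 1.92.

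Between LOVA and NTC, both without GDNF, no gene of the pathway was called. Of the 32 genes, 0 were called in LOVA minus NTC by edgeR, as were 0 of all genes (0% lower and 0% higher). By the same test 0 of the 32 had an unadjusted p under 0.05, and so had only 561 of all 16121 genes tested. These counts therefore do not set the pathway apart from other genes. DESeq2 also called 0 of the 32, and the share of all genes it called is not given here. The median was 0.05, with 20 positive and 12 negative values. All 32 intervals included 0, and 21 of them lay wholly between -1 and 1 on the log2 scale. The other intervals reach beyond a log2 difference of 1 in size, so these libraries do not show that such genes were alike. Piwil2 was at 0.02 (95% interval -0.69 to 0.72), Mael at -0.01 (95% interval -0.87 to 0.86), Tdrd1 at 0.07 (95% interval -0.52 to 0.65) and Ddx4 at 0.31 (95% interval -0.22 to 0.84). In 3 genes the libraries of the groups did not overlap. Spocd1 (0.52, 95% interval -0.25 to 1.29) and Tex15 (0.39, 95% interval -0.10 to 0.88) were higher in both LOVA libraries, as were 12.7% of all genes. Piwil4 (-0.42, 95% interval -1.04 to 0.19) was lower in both, as were 13.0% of all genes. The sign of the median depended on the libraries: it was -0.37 without LOVA A, 0.40 without LOVA B, 0.34 without NTC A and -0.14 without NTC B.

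**Figure D5:**
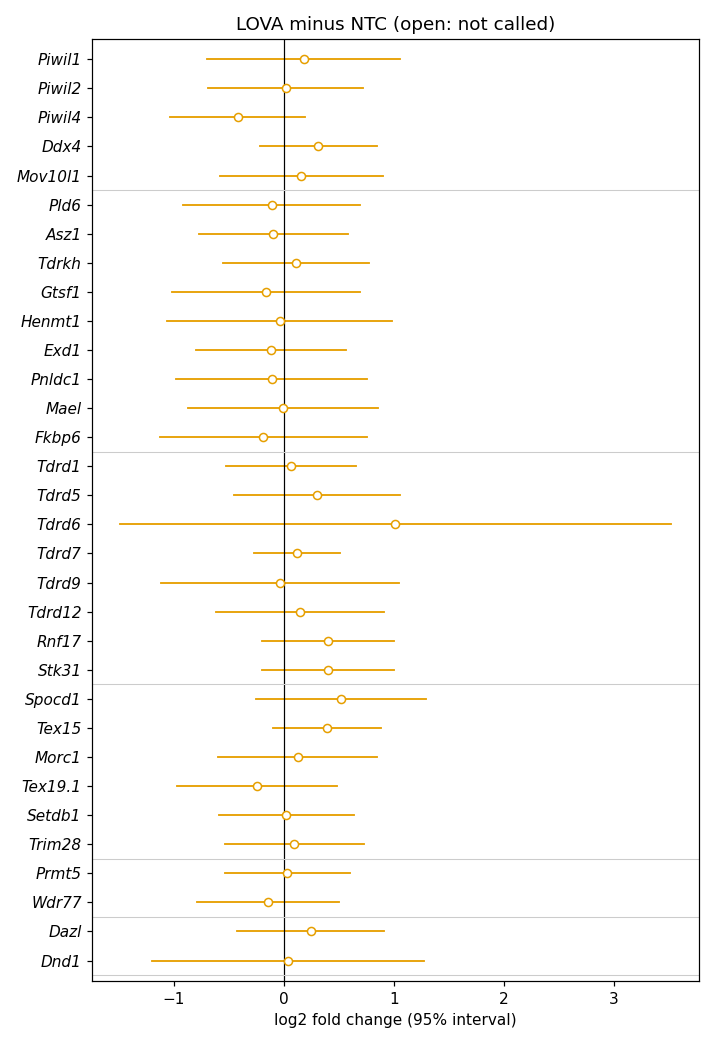
Log2 fold changes of the 32 genes in LOVA minus NTC with 95% intervals. All 32 intervals cross 0, and the widest belongs to Tdrd6, which had at most 7 counts in any library of these groups.

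Per kilobase of merged exon length, levels of the genes spanned a wide range in PTC. Mael was the most abundant at 294 CPM per kb, ahead of Fkbp6 at 240.4. Dazl (175), Piwil2 (171), Tex19.1 (162) and Trim28 (154) followed, with overlapping libraries between neighbours. Of the PIWI genes, Piwil2 was far above Piwil4 (8.23 CPM per kb) and Piwil1 (3.60). Spocd1 (5.05) and Exd1 (5.47) were also low, and Tdrd6 (0.157) was the lowest. Tex15 was at 10.4 CPM per kb in PTC, 15.3 in NTC and 20.02 in LOVA, below Tdrd9 in PTC (11.5) and above it in NTC (3.19) and LOVA (3.09). Mael also had the highest mean in NTC (139) and in LOVA (138), where its libraries overlapped those of Dazl.

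Other genes of piRNA biology gave a mixed picture. Of 13 such genes outside the 32, 12 were in the table and 11 were tested. Against PTC, 3 fell and 1 rose in NTC, where 12.9% of all genes were called lower and 21.5% higher. In LOVA 3 fell and 2 rose, where 10.8% and 19.8% of all genes were called. Mov10, the broadly expressed relative of Mov10l1, fell by 1.22 (SE 0.25, adjusted p = 0.0168) and 1.07 (SE 0.25, adjusted p = 0.0261) on the log2 scale. Hsp90aa1, a chaperone that loads PIWI proteins, and Snd1, a Tudor nuclease, fell too (-0.96 and -0.61 in NTC, -0.66 and -0.58 in LOVA). Tdrd3, a Tudor protein of most cell types, rose in both, at 0.99 (SE 0.30, adjusted p = 0.0410) and 1.21 (SE 0.30, adjusted p = 0.0280). Mybl1, the transcription factor A-MYB that drives piRNA precursor transcription in meiotic cells, was at 4.45 and 3.49 CPM in PTC, 7.33 and 7.48 CPM in NTC, and 8.76 and 10.1 CPM in LOVA. It rose in LOVA (1.25, SE 0.31, adjusted p = 0.0280) and was not called in NTC (0.90, SE 0.31, adjusted p = 0.0590). Both Tdrd3 and Mybl1 were high in the libraries with high fibroblast shares, and the part of those cells was not tested. On the germ cell scale none of the 11 was called lower, where 0.254% (NTC) and 0.192% (LOVA) of all genes were. On that scale 2 were called higher in each comparison, where 24.3% and 26.2% of all genes were.

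Of 22 DNA methylation and heterochromatin genes outside the pathway, 9 fell in NTC and none rose, with a median of -0.61. There 12.9% of all genes were called lower and 21.5% higher. In LOVA 9 fell and 1 rose, with a median of -0.52, where 10.8% of all genes were called lower and 19.8% higher. The lowest called in NTC were Dnmt3b (-1.10), Dnmt1 (-1.02), Ehmt2 (-0.999) and Kdm1a (-0.99). In LOVA, Dnmt3l, the cofactor of de novo methylation, fell (-1.99, SE 0.49, adjusted p = 0.0283) from 9.47 and 4.35 CPM in PTC to 1.57 and 1.89 CPM, and Dnmt3b (-1.46) and Dnmt1 (-1.09) fell with it. Atrx, a remodeller that deposits histone H3.3 at repeats, was the gene that rose (1.19, SE 0.30, adjusted p = 0.0301), at 94.0 and 59.9 CPM in PTC, 121 and 107 CPM in NTC, and 134 and 218 CPM in LOVA. On the germ cell scale none of the 22 was called lower in either comparison, where 0.254% (NTC) and 0.192% (LOVA) of all genes were. On that scale 2 were called higher in LOVA, where 26.2% of all genes were.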

How the data were processed

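RNA of 6 libraries was sequenced as paired ends of 150 bp from a strand-specific kit, per the labels. The authors deposited raw counts per Ensembl gene, whole numbers with no normalization. The submitters' processing notes name Trimmomatic, Bowtie2, RSEM and DESeq2, with no roles, and build mm10; how reads were counted is not given in the sources used here, so the counts could be rounded estimates. Symbols, coordinates and merged exon lengths came from GENCODE M21 (GRCm38), and 21 identifiers had no match.

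Genes were kept by edgeR's filterByExpr (16121 of 31384), scaled by TMM, and fitted with 1 coefficient per group over all 6 libraries (edgeR 4.0.16, robust quasi-likelihood fit, R 4.3.3). P-values were adjusted by Benjamini-Hochberg over all genes tested, and called under 0.05. The fit left 3 residual degrees of freedom and a common biological coefficient of variation of 0.260. Alternatives were DESeq2 1.42.0, its size factors, no filter, scaling to 21 germ cell genes that are not members (median of ratios), a block by column letter, and leaving out each library. Scripts were tested on simulated data.

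Genes with values for each library were the 12 with the largest called change in each comparison against PTC, and 9 set ones (Piwil2, Piwil4, Ddx4, Mael, Tdrd1, Dazl, Prmt5, Setdb1, Trim28); Tdrkh, Tdrd7, Tdrd6, Dnd1, Sycp1 and library values of Zbtb16, Mybl1 and Atrx were added after values were seen. From the lists of other piRNA genes and of DNA methylation and heterochromatin genes, up to 4 called genes with the largest change were named. The other lists are given by shares or counts, with single genes as examples that do not follow this rule. Lhx1, Ret and Pou3f1 were named after values were seen. The genes and lists were chosen with earlier results of these data known. Floors cover counting error only.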

Additional observations from a re-analysis of the deposited data

How the results depend on the processing

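Directions against PTC held in 31 lower genes and 1 higher gene under DESeq2 size factors, DESeq2's test, no filter, a replicate block and each library left out; counts of calls did not. In NTC minus PTC, 16 genes were called, against 28 without a filter, 22 by DESeq2, and 1 on the germ cell scale. In LOVA minus PTC, 14 were called, against 27 without a filter, 22 by DESeq2, and 1 on the germ cell scale. Leaving out 1 library gave 0 to 26 and 0 to 29 calls, medians of -1.22 to -0.73 and -1.35 to -0.62, and -0.37 to 0.40 for LOVA minus NTC; a group left with 1 library is assumed to vary like the others. DESeq2 size factors changed no call. For the alternatives other than the germ cell scale, the share of all genes called is not given here. Their counts of calls therefore do not set the pathway against other genes. The cause of the differences between settings was not tested.

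The column letters do not match the labels' numbers and are not known to pair cultures. The A minus B differences correlated over genes at 0.31 (PTC and NTC), 0.35 (PTC and LOVA) and 0.48 (NTC and LOVA). A replicate block by letter called 29 genes in NTC minus PTC and 29 in LOVA minus PTC, each 28 lower and Tex15 higher, and 0 in LOVA minus NTC. In LOVA minus NTC the block turned Piwil2 -0.0214, Setdb1 -0.00170 and Dnd1 -0.00547.

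On the germ cell scale the medians were -0.0588 and -0.0810, and signs turned, with no call, in NTC minus PTC (Piwil4 0.15, Pld6 0.12, Asz1 0.22, Gtsf1 0.42, Exd1 0.45, Tdrd7 0.16, Rnf17 0.13, Tex19.1 0.11, Wdr77 0.32 and Dazl 0.24), in LOVA minus PTC (Ddx4 0.31, Asz1 0.15, Tdrkh 0.0923, Gtsf1 0.22, Exd1 0.30, Tdrd7 0.32, Tdrd12 0.0120, Rnf17 0.57, Stk31 0.27, Trim28 0.0325, Wdr77 0.16 and Dazl 0.54) and in LOVA minus NTC (Piwil2 -0.0271). In LOVA minus NTC, where nothing was called, leaving out libraries turned signs of Asz1 (-0.45 to 0.23), Dazl (-0.10 to 0.65), Dnd1 (-0.85 to 0.64), Exd1 (-0.54 to 0.20), Fkbp6 (-0.94 to 0.31), Gtsf1 (-0.75 to 0.25), Henmt1 (-0.75 to 0.43), Mael (-0.69 to 0.45), Morc1 (-0.20 to 0.52), Mov10l1 (-0.40 to 0.56), Piwil1 (-0.33 to 0.54), Piwil2 (-0.52 to 0.41), Pld6 (-0.60 to 0.25), Pnldc1 (-0.73 to 0.32), Prmt5 (-0.35 to 0.33), Setdb1 (-0.39 to 0.34), Tdrd1 (-0.34 to 0.38), Tdrd12 (-0.28 to 0.49), Tdrd5 (-0.22 to 0.68), Tdrd6 (-0.28 to 2.08), Tdrd9 (-0.91 to 0.49), Tdrkh (-0.26 to 0.41), Tex19.1 (-0.80 to 0.15), Trim28 (-0.28 to 0.39) and Wdr77 (-0.56 to 0.18). Having 2 libraries a group limits what can be called, and Tdrd6 is limited by its counts.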

Other observations

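Per 1000 counts of the 21 germ cell genes, some genes of the pathway differed between LOVA A and LOVA B. Fkbp6 was at 98.0 and 102 in the PTC libraries (A, then B), 101 and 98.8 in those of NTC and 97.0 and 69.7 in those of LOVA. Rnf17 was at 36.8 and 33.1 in the PTC libraries (A, then B), 40.6 and 38.6 in those of NTC and 47.7 and 58.4 in those of LOVA. For Dazl the values were 155 and 163 in the PTC libraries (A, then B), 213 and 177 in those of NTC and 213 and 261 in those of LOVA, so that B was lower than A in NTC and higher in LOVA. Dnd1 was lower in B than in A in both NTC and LOVA, at 29.8 and 29.6 in the PTC libraries (A, then B), 25.2 and 17.2 in those of NTC and 25.6 and 16.2 in those of LOVA. These 4 genes were picked after their values were seen and no test was made.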
